A study of Macaca mulatta with 12 samples.

Results

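mml-mir-219-1, mml-mir-219-2 and mml-mir-338 are the 3 pre-miRNAs of Macaca mulatta that give rise to miR-219 and miR-338. They were selected by name from the study's list of pre-miRNAs, of which 832 were read here, and they hold 5 distinct mature arms of the 1220 mature sequences whose reads were counted. Small RNAs had been sequenced in 12 profiles from 8 tissues of 36-month-old wild-type animals that received no treatment. Kidney, large intestine, muscle and small intestine had 2 profiles each, and liver, lung, occipital lobe and spinal cord had 1 each. The samples came from 2 animals, and the labels do not say which animal gave which sample, so the p-values below measure only the spread between the profiles of the 4 paired tissues. The occipital lobe is part of the cerebral cortex with the white matter below it, and the spinal cord is rich in long myelinated tracts. Both are whole tissues, in which fewer cells of a type and less RNA per cell cannot be told apart.

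miR-219 and miR-338 are known as miRNAs of oligodendrocytes, the cells that wrap axons of the central nervous system in myelin. They are turned on as oligodendrocyte precursors stop dividing and mature, and they repress transcripts that hold cells in the precursor state, among them the growth factor receptor PDGFRA and the transcription factors SOX6 and HES5. A pre-miRNA is cut from its hairpin by the enzymes Drosha and Dicer into a 5p arm and a 3p arm, and bases 2 to 8 of the loaded arm, the seed, pair with target transcripts.

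The 3 hairpins are shown first because the results turn on where their arms lie and on the bases in which both miR-219 genes differ. In the sequences below, taken from the study's list and written 5′ to 3′, capitals mark the arms within each hairpin.

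mml-mir-219-1: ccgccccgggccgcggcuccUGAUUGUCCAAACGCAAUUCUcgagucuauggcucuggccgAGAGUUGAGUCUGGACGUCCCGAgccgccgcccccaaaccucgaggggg
mml-mir-219-2: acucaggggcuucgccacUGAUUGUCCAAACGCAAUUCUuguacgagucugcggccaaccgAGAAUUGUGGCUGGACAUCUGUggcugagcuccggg
mml-mir-338: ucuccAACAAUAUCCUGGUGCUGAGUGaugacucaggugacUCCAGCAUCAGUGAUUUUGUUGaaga

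The mature arms are given with the seed in capitals.

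miR-219-5p: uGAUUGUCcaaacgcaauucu
miR-219-1, 3′ arm: aGAGUUGAgucuggacgucccga
miR-219-2-3p: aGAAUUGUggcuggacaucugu
miR-338-5p: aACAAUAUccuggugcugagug
miR-338-3p: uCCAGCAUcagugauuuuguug

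Both miR-219 genes carry the same 5p arm, so its reads cannot be given to either gene unless they run past its end. Their 3p arms differ, with 15 identical bases over the first 22 positions, and they have different seeds. The 3p sequence listed for mml-mir-219-1 does not occur in its own hairpin and equals that of mml-mir-219-2. The 3p window of mml-mir-219-1 was therefore set to its most abundant exactly matching read, which had 591 copies. Of the listed mature sequences, 7 of 1397 were absent from their own hairpins. The 5p seed is shared with 1 other listed mature miRNA, mml-mir-508-3p. It was lower in occipital lobe (3.04 RPTM) and spinal cord (10.9) than in kidney (57.9 and 210.4). The other non-neural profiles held 4.44 to 40.2 RPTM, a range that included spinal cord. The seed of miR-219-2-3p is shared with 1 other, mml-miR-548u-9-5p, which did not pass the filter on low levels described below. In the RefSeq annotation of the assembly T2T-MMU8v2.0, MIR219-1 is on chromosome 4 between RING1 and HSD17B8 and overlaps PFDN6, MIR219-2 is on chromosome 15 and overlaps the annotated spans of CERCAM and URM1, and MIR338 is on chromosome 16 within AATK, which encodes a kinase of the nervous system.

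The profiles held 22118095 to 25579064 valid reads, and 35.9% to 68.4% of them matched a mature miRNA exactly with both ends within 2 nt. Levels are given in RPTM, reads per 10000000 valid reads, so that a single read stands for 0.391 to 0.452 RPTM and the limit that a count of 0 allows is 1.17 to 1.36 RPTM. The tissue labels were checked against known miRNAs. miR-122a-5p of hepatocytes reached 7320 RPTM in liver and at most 4.37 elsewhere, miR-206-3p of skeletal muscle was 117 and 137 RPTM in muscle and at most 1.30 elsewhere, and miR-124a-3p of neurons was 10508 RPTM in occipital lobe, 3278 in spinal cord and at most 7.26 in the other profiles. Intervals in the text are Wilson intervals with a confidence level of 95% and cover counting error only, as no molecular identifiers were counted and copies made by PCR could not be told from separate molecules.

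The first question was how far the 5 arms mark the neural tissues. miR-219-2-3p was the most abundant of them in spinal cord, and second to miR-338-3p in occipital lobe, with 18456.5 RPTM (44123 reads) in spinal cord and 2329 RPTM (5360 reads) in occipital lobe. It ranked 77th among all mature sequences of the occipital lobe and 33rd among those of the spinal cord. In the 10 non-neural profiles it was 2.35 and 3.31 RPTM in kidney, 3.16 and 2.55 in large intestine, 5.65 in liver, 3.50 in lung, 2.50 and 3.49 in muscle, and 2.05 and 4.64 in small intestine. These values rest on 5 to 14 reads per profile and 79 reads in all. Both neural profiles stood far above this range, and the occipital lobe was 412.5-fold above the highest non-neural profile. The non-neural tissues lay within 1 narrow band and could not be ordered at this depth.

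miR-219-5p, the arm that guides the repression of PDGFRA, followed at lower levels with 943 RPTM (2255 reads) in spinal cord and 121 RPTM (279 reads) in occipital lobe. The non-neural profiles together held 19 reads. It was 0.782 and 0.413 RPTM in kidney, 0.452 and 0.850 in large intestine, 1.75 in lung, 1.67 and 0 in muscle, 1.64 and 0.422 in small intestine, and 0 in liver. All of these are 0 to 4 reads, so that no non-neural level could be set apart from another.

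The 3p arm of mml-mir-219-1 did not follow that pattern. It was 52.7 RPTM (126 reads) in spinal cord and 54.3 RPTM (125 reads) in occipital lobe, beside 56.1 RPTM in liver, which was the highest value. The other profiles held 24.2 and 23.1 RPTM in kidney, 21.7 and 23.4 in large intestine, 20.5 in lung, 10.4 and 9.15 in muscle, and 31.5 and 26.1 in small intestine. The neural profiles thus overlapped with the non-neural ones.

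miR-338-3p, the arm for which repression of SOX6 and HES5 is known, was 7468 RPTM (17854 reads) in spinal cord and 2765 RPTM (6363 reads) in occipital lobe. Unlike miR-219-2-3p it was well above the count limit everywhere. Lung held 559.7 RPTM, muscle 282 and 54.9, small intestine 221 and 176, large intestine 95.4 and 129, kidney 62.2 and 24.0, and liver 27.02. The occipital lobe was 4.94-fold above lung, the highest non-neural profile. The muscle profiles differed by 2.34 and the kidney profiles by 1.34 on the log2(RPTM + 1) scale, so muscle could not be placed above or below either intestine, whereas the intestinal pairs differed by at most 0.43.

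miR-338-5p was 497 RPTM (1188 reads) in spinal cord and 142 RPTM (326 reads) in occipital lobe. It was 21.3 and 38.8 RPTM in small intestine, 16.2 in lung, 4.30 and 4.13 in kidney, 4.97 and 6.38 in large intestine, 3.23 in liver, and 7.09 and 3.05 in muscle. Both neural profiles exceeded all others. These levels leave out most reads of a second form described below. With both ends within 4 nt, the arm was 668 RPTM in spinal cord, 258 in occipital lobe, 37.2 and 54.0 in small intestine and 39.8 in lung, so that lung lay between the 2 small intestine profiles.

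**Figure D1:**
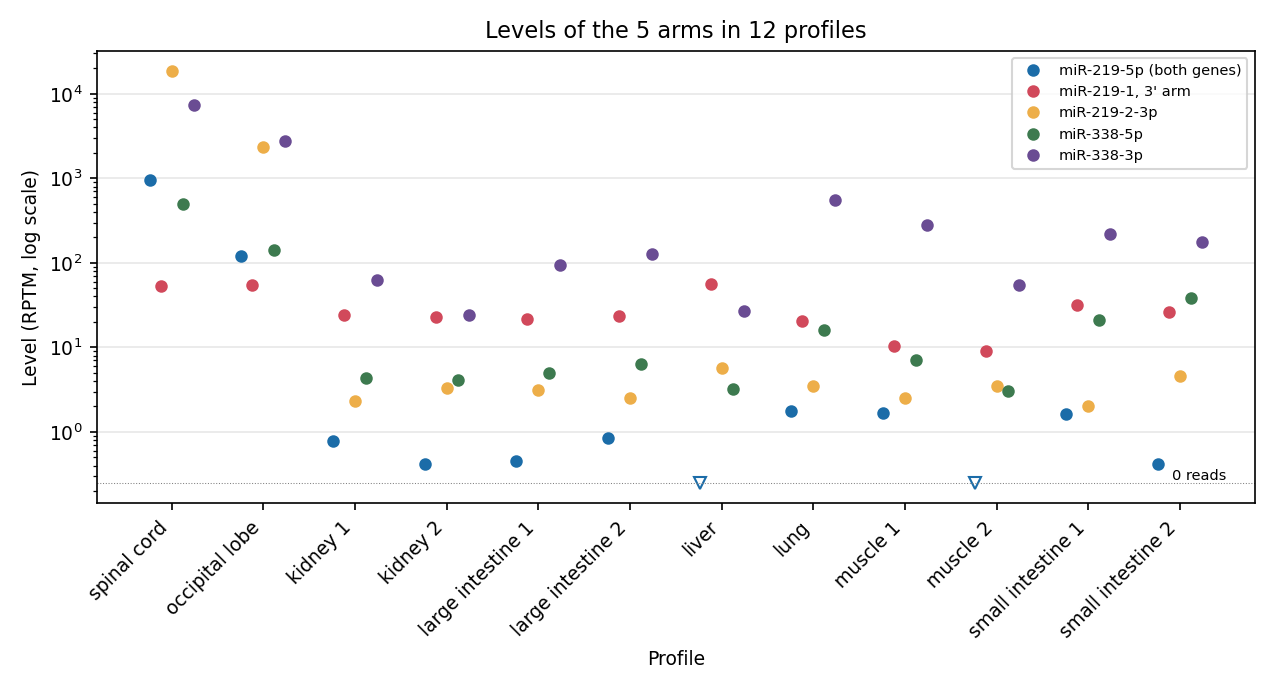
Level of each arm (RPTM, log scale) in each of the 12 profiles; each point is 1 profile, and open triangles mark 0 reads. miR-219-2-3p rises from 2.05 to 5.65 RPTM in non-neural profiles to 2329 and 18456.5 RPTM in neural ones, while the 3p arm of mml-mir-219-1 stays between 9.15 and 56.1 RPTM in all 12.

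Neural and non-neural tissues were compared with edgeR's quasi-likelihood test on the counts of 372 mature miRNAs with 8 tissues as groups and TMM factors. Of all miRNAs tested, 149 were called higher in the neural tissues at an adjusted p under 0.05, which is 40.1%, and 116 were called lower, which is 31.2%. All 5 arms passed the filter, although miR-219-5p and miR-219-2-3p reached the mean of 5 RPTM only through the neural profiles. For these 2 arms the fold changes are therefore a description, with no p-value. The log2 fold change was 9.45 (SE 0.34) for miR-219-2-3p and 7.77 (SE 0.51) for miR-219-5p. miR-338-3p was higher by 3.87 (log2, SE 0.42, adjusted p = 2.3e-05) and miR-338-5p by 3.68 (log2, SE 0.37, adjusted p = 1.4e-05). Each of these 4 arms had a higher level in both neural profiles than in all 10 others, as were 43.5% of the 372 miRNAs.

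The 3p arm of mml-mir-219-1 had a log2 fold change of -0.25 (SE 0.34, adjusted p = 0.52) with TMM factors but 1.18 (adjusted p = 0.0076) when counts were scaled by valid reads alone. The TMM factors were 2.25 in occipital lobe and 2.57 in spinal cord and 0.619 to 1.36 elsewhere. Valid reads moved the median of all 372 log2 fold changes from 0.40 to 1.84, a shift of 1.43, and gave 236 miRNAs called higher and 72 lower. Relative to the median of all miRNAs, this arm was at -0.66 on both scales, miR-219-2-3p at 9.05, miR-219-5p at 7.36 and 7.32, miR-338-3p at 3.47 and 3.45 and miR-338-5p at 3.28. No direction is therefore given for the 3p arm of mml-mir-219-1.

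Other miRNAs were set beside the members by 2 lists. A list of 11 further pre-miRNA names with a known role in the oligodendrocyte lineage held 15 tested mature miRNAs. Of these, 6 were called higher, beside 40.1% of all miRNAs tested, and 9 lower, beside 31.2%. Their median log2 fold change was -2.26 against 0.40 over all miRNAs tested. With valid reads 6 were called higher and 8 lower, beside 236 and 72 of all 372. Among the 6 higher with TMM factors, miR-7-5p reached the mean of 5 RPTM only through the neural profiles, so its call carries no weight. miR-138-5p, which promotes the early phase of oligodendrocyte differentiation, was higher by 4.43 (log2, SE 0.30, adjusted p = 1.16e-06), and miR-204-5p by 2.37 (SE 0.45, adjusted p = 0.000848). The level of miR-204-5p was 29724 and 19045 RPTM in kidney, 19591 in occipital lobe and 15956 in spinal cord, so the neural profiles overlapped with kidney. miR-145-5p, a miRNA of smooth muscle, had a log2 fold change of -3.25 (SE 0.52, adjusted p = 0.000293). The neuronal list held 19 mature miRNAs, of which 14 were tested, and 7 of these reached the mean of 5 RPTM only through the neural profiles. The other 7 were all called higher on both scales, beside 40.1% of all miRNAs tested with TMM factors and 236 of 372 with valid reads. miR-9-5p, a miRNA of neural progenitors and neurons, was higher by 8.38 (SE 0.25, adjusted p = 6.42e-09).

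The gene of origin could be read from the 3p arms within a single profile, without scaling between libraries. In spinal cord 44123 of the 3p reads of both genes came from mml-mir-219-2 and 126 from mml-mir-219-1, a ratio of 350.2. In occipital lobe they numbered 5360 and 125, a ratio of 42.9. In the 10 non-neural profiles together the counts were 79 and 592, a ratio of 0.133. The share of mml-mir-219-2 was 99.7% in spinal cord (interval 99.7% to 99.8%) and 97.7% in occipital lobe (97.3% to 98.1%). In the non-neural profiles it ranged from 6.10% (2.63% to 13.5%) in small intestine 1 to 27.6% (14.7% to 45.7%) in muscle 2. Neural and non-neural profiles did not overlap. The intervals of the non-neural profiles other than muscle 2 all held the range from 9.19% to 13.5%.

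**Figure D2:**
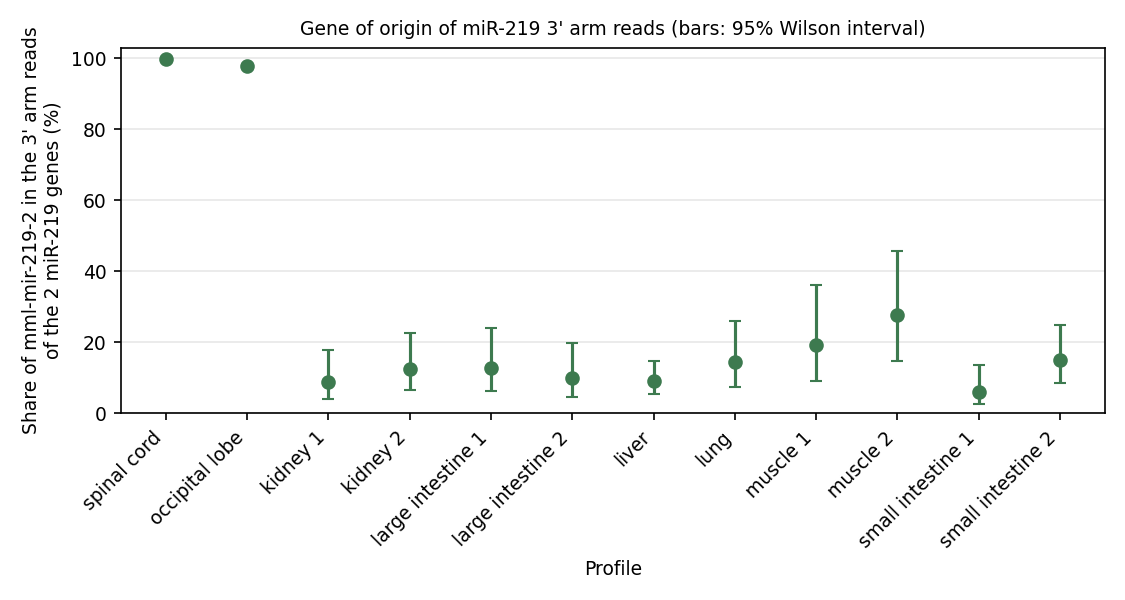
Share of mml-mir-219-2 in the 3p reads of both miR-219 genes (percent) in each profile, with 95% Wilson intervals as bars. The neural profiles are at 97.7% and 99.7%, and all 10 others lie between 6.10% and 27.6%.

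The bases that follow the shared 5p arm also differ between the genes, and reads that run into them can be assigned. The arm with its next 4 bases is shown for each gene, with those bases in capitals.

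mml-mir-219-1: ugauuguccaaacgcaauucuCGAG
mml-mir-219-2: ugauuguccaaacgcaauucuUGUA

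In spinal cord 1289 extended reads matched mml-mir-219-2 and 19 matched mml-mir-219-1, and in occipital lobe 114 and 3. In the 10 non-neural profiles 13 extended reads matched mml-mir-219-1 and none matched mml-mir-219-2. A single added base can also be an untemplated tail, which was not told apart from a templated base here. The order of the genes was that of the 3p arms in both groups of profiles.

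Within mml-mir-219-2 the 3p arm prevailed. There were 19.6 reads of miR-219-2-3p per read of the shared 5p arm in spinal cord and 19.2 in occipital lobe, or 95.1% (94.9% to 95.3%) and 95.05% (94.4% to 95.6%) of both. With only reads identical to the mature sequences these ratios were 60.3 and 49.2. mml-mir-338 had a similar balance, with 93.8% of its reads on the 3p arm in spinal cord (93.4% to 94.1%), 95.1% in occipital lobe (94.6% to 95.6%) and 93.7% (92.9% to 94.4%) over the non-neural profiles together. The share was lowest in small intestine 2, at 82.0% (78.4% to 85.1%), while small intestine 1 had 91.2% (88.7% to 93.2%). It was highest in muscle 1, at 97.6% (96.1% to 98.5%). The 2 small intestine profiles thus differed from each other by more than their counting intervals, and a difference between tissues of that size cannot be read from single profiles.

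**Figure D3:**
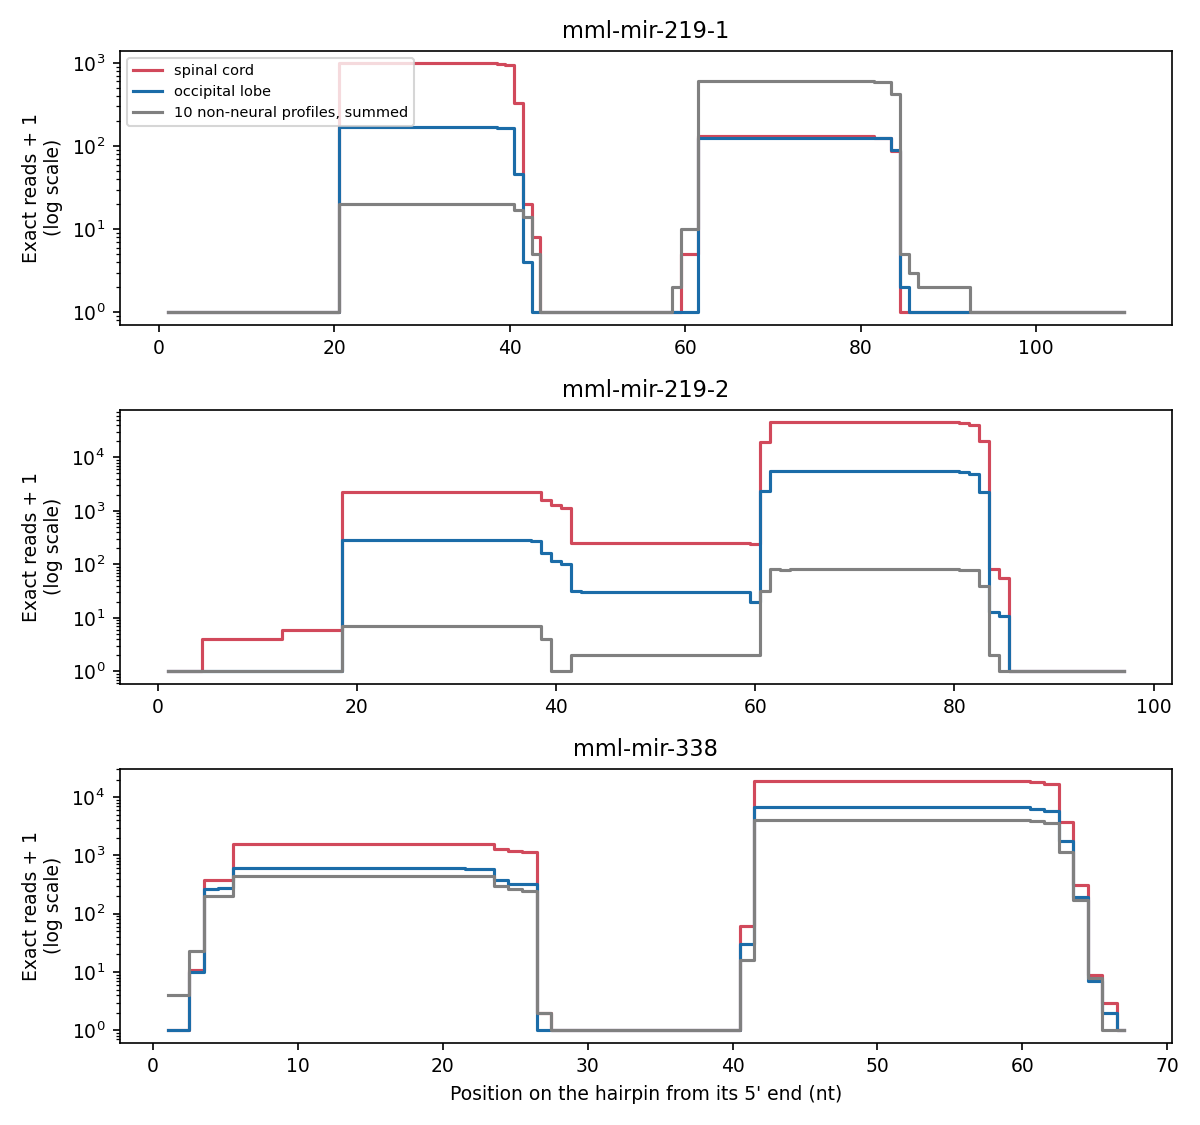
Exact reads over each position of the 3 hairpins (reads + 1, log scale; position in nt from the 5′ end of the hairpin) for spinal cord, occipital lobe and the sum of the 10 non-neural profiles. The 3p arm of mml-mir-219-1 has 592 non-neural reads against 126 in spinal cord, and mml-mir-219-2 also has reads between its arms.

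mml-mir-219-2 also gave reads from its loop, the part between both arms that Dicer removes. Spinal cord held 244 such reads (102.1 RPTM), occipital lobe 30 (13.0 RPTM) and the 10 non-neural profiles 1. The 3 most abundant loop reads are printed to show where they lie between the arms.

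loop read of 20 nt: uacgagucugcggccaaccg
loop read of 19 nt: uacgagucugcggccaacc
loop read of 21 nt: uacgagucugcggccaaccga

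They began after a gap of 2 nt from the listed end of the 5p arm, at the base that follows the 23-nt 5p read. The read of 20 nt ended at the base before the listed 3p start and the read of 19 nt at the base before the upstream 3p start described next, whereas the read of 21 nt ran over the first base of the 3p arm. The loop of mml-mir-219-1, of 20 nt, had no such read. Its 3p arm had only 126 reads in spinal cord and 125 in occipital lobe, beside 44123 and 5360 for mml-mir-219-2. The loops of both genes therefore cannot be compared in the neural profiles at this depth.

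The ends of the reads were examined because the 5′ end sets the seed. miR-219-2-3p had 2 starts. In spinal cord 57.3% (56.8% to 57.8%) of its 44123 reads began at the listed base and 42.4% (41.9% to 42.8%) 1 nt upstream. In occipital lobe these shares were 56.4% (55.1% to 57.7%) and 43.3% (42.0% to 44.7%), and the upstream start took 38.0% (28.1% to 49.0%) of the 79 non-neural reads. The intervals of these 3 sets overlapped. The most abundant read of each start is shown with bases 2 to 8 in capitals.

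listed start: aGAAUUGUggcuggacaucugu
upstream start: gAGAAUUGuggcuggacaucug

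The first had 18803 copies in spinal cord and 2067 in occipital lobe, the second 14970 and 1886. The shifted seed AGAAUUG was not found in any of the 1220 listed mature sequences. The other arms, apart from miR-338-5p, had 1 main start. miR-219-5p began at the listed base in 99.8% of the 2255 spinal cord reads and in all 279 of the occipital lobe, and miR-338-3p in 99.3% and 99.4%. The 3p arm of mml-mir-219-1 began at its window start in all 126 and 125 neural reads and in 99.7% of 592 non-neural reads. As this window was set to the most abundant read of the arm, a main start there is largely given by construction.

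miR-338-5p had a second form, which began 2 nt upstream and ended early. With both ends counted within 4 nt, the upstream start took 22.97% (20.97% to 25.1%) of 1598 reads in spinal cord, 42.8% (38.8% to 46.8%) of 594 in occipital lobe and 62.6% (52.4% to 71.9%) of 91 in lung. In small intestine it took 35.2% (26.1% to 45.4%) and 26.6% (19.7% to 34.8%). The 2 forms are shown because the main rule of 2 nt leaves most of the second form out, and it therefore lowers the counts of this arm.

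listed start: aacaauauccuggugcugagu
upstream start: ccaacaauauccuggugcug

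At the 3′ side, miR-338-3p mostly ended 1 nt before the listed end, in 67.4% (66.7% to 68.1%) of its reads in spinal cord and 60.5% (59.4% to 61.7%) in occipital lobe. Its listed end was used by 18.6% and 23.1%. miR-219-2-3p used its listed end (44.4% in spinal cord, 40.1% in occipital lobe) and the base before it (43.7% and 47.8%) almost equally. miR-219-5p was spread over several ends, with 48.4% (46.3% to 50.4%) of the reads in spinal cord 2 nt longer than listed and 27.2% (25.4% to 29.1%) 1 nt shorter. In occipital lobe the longer end had 34.6% (29.3% to 40.3%) and the shorter 42.1% (36.4% to 47.9%). These shares, like the levels of miR-219-5p, count exact matches only. They leave out the reads with the C-to-U change described below, which was most frequent among reads of 22 nt.

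Untemplated 3′ bases were set against the pooled reads of all mature miRNAs of the same profile. A single added C was found on 7.38% (7.17% to 7.61%) of miR-219-2-3p reads in spinal cord and 17.5% (16.7% to 18.4%) in occipital lobe, beside 8.17% and 16.2% over all mature miRNAs. For miR-338-3p the shares were 5.89% and 9.98%, for miR-219-5p 1.55% and 1.04%, and for miR-338-5p 13.9% (12.3% to 15.8%) and 32.7% (28.9% to 36.8%). miR-338-5p thus lay above the pooled share in both tissues. Shares of single other miRNAs were not computed. An added A was on 6.49% and 6.79% of miR-219-2-3p reads, beside 4.79% and 5.56% over all miRNAs. Added U was counted on 0.14% and 0.20% of miR-338-3p reads and on 1.88% and 2.02% of miR-219-2-3p reads. Over all miRNAs it was 4.19% and 2.38%. On the 3p arm of mml-mir-219-1 it was 9.64% (6.02% to 15.1%, 16 reads) and 5.63% (2.88% to 10.7%, 8 reads). In the 10 non-neural profiles together this arm had 7.18% (5.545% to 9.25%), an interval that held the 6.065% of all miRNAs there. On miR-219-5p an added U cannot be told from the U that follows the arm in mml-mir-219-2, nor an added C from the C that follows it in mml-mir-219-1, so its share of added C can be too low. The same holds for an added U on miR-219-2-3p reads ending 1 nt early and on miR-338-3p reads ending 2 nt early. There the next hairpin base is a U, and such reads were counted as exact. The shares of added U on both arms can thus be too low, and their main ends can hold tailed reads.

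Spinal cord and occipital lobe were compared in the same fit. Each has 1 profile, so there is no replicate check within either tissue, and both were assumed to vary like the 4 paired tissues. The profiles of those tissues held only 5 to 11 reads each of miR-219-2-3p, beside 44123 in spinal cord and 5360 in occipital lobe. Of miR-219-5p they held 0 to 4 reads each. The p-values of both arms thus rest on a spread measured near the count limit. Of the 372 miRNAs, 11 were called higher in spinal cord by edgeR, which is 2.96%, and 0 lower, beside 20 lower at an unadjusted p under 0.05 and 6 by the DESeq2 Wald test. miR-219-2-3p was among them, with a log2 fold change of 2.80 (SE 0.60, adjusted p = 0.034) and a ratio of the RPTM values of 7.92. The call was lost when any profile of kidney, large intestine or small intestine was left out (adjusted p from 0.051 to 0.056), and with only identical reads (0.066), with the fold change nearly the same. miR-219-5p had a log2 fold change of 2.77 (SE 0.86, adjusted p = 0.1), miR-338-5p of 1.62 (SE 0.75, adjusted p = 0.25), miR-338-3p of 1.24 (SE 0.90, adjusted p = 0.44) and the 3p arm of mml-mir-219-1 of -0.23 (SE 0.60, adjusted p = 0.86), and none of these passed the test. The median over all 372 was 0.16. None of the 15 oligodendrocyte-lineage miRNAs nor of the 14 neuronal miRNAs was called, with medians of 1.08 and -0.71.

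Of the markers of other cells, 1 was called in the same comparison. miR-133a-3p of muscle was 710.3 RPTM in spinal cord and 86.1 in occipital lobe (log2 fold change 2.85, SE 0.44, adjusted p = 0.00709), whereas miR-206-3p was 0.418 and 1.30 RPTM. The endothelial miR-126-3p was 1136 and 493 RPTM and was not called, nor were the 5 tested miRNAs of blood cells or the 2 each of liver and small intestine. The part of these cells in the difference of miR-219-2-3p was not tested.

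**Figure D4:**
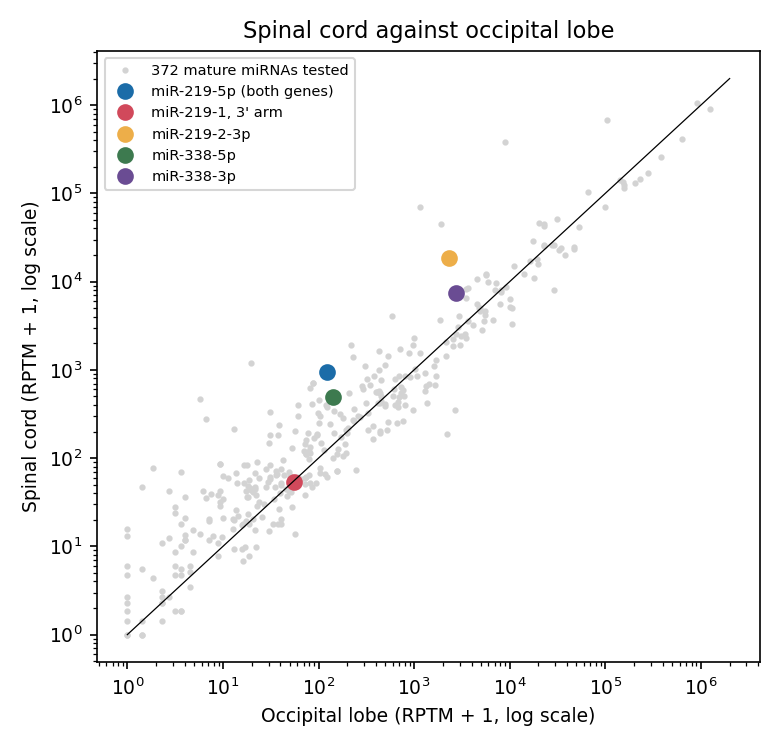
Level in spinal cord against occipital lobe (RPTM + 1, both log scales) of the 372 mature miRNAs tested, with the member arms in colour and a line of equal level. miR-219-2-3p lies 7.92-fold above equality and the 3p arm of mml-mir-219-1 at a ratio of 0.97.

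Single-base differences were counted in all arms. A site was called with at least 10 changed reads, a level of at least 5% and an adjusted p under 0.05 in an exact binomial test against an error rate of 0.001. Of the 292746 tests over all mature miRNAs, changes and profiles, 614 were called, which is 0.21%, and 95 of 21378 C-to-U tests, which is 0.444%. In the member arms only 1 site was called in the neural profiles, a C-to-U change at position 15 of miR-219-5p (C15U, counted from 1 at the 5′ end of the mature arm). The listed and the changed form are shown with this base in capitals.

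listed: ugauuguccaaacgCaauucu
changed: ugauuguccaaacgUaauucu

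C15U was found in 403 of 2867 reads in spinal cord, 14.1% (12.8% to 15.4%), and in 67 of 369 reads in occipital lobe, 18.2% (14.6% to 22.4%). Among C-to-U sites with at least 100 reads the 95th percentile was 0.576% in occipital lobe and 0.669% in spinal cord. In the 10 non-neural profiles 0 of 25 reads were changed, which allows a level of up to 12%, so that a lower level was not detectable at this depth. The other 4 C of the arm had 0 to 6 changed reads in each neural profile.

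The level of C15U varied with the 3′ end of the read. Reads with a recognised tail were left out, but an added base equal to the next hairpin base is not recognised as a tail. Among reads of 20 nt the level was 5.61% (4.10% to 7.64%, 659 reads) in spinal cord. Among those of 21 nt it was 18.1% (14.6% to 22.3%, 381 reads). Reads of 22 nt with the mml-mir-219-2 end had 58.4% (53.8% to 62.8%, 461 reads), and reads of 23 nt with that end had 0 of 1094, which allows up to 0.274%. In occipital lobe the same 4 ends had 3.25% (1.27% to 8.06%), 23.6% (14.4% to 36.3%), 74.1% (61.6% to 83.7%) and 2 of 100 reads. The 22-nt reads with the mml-mir-219-1 end had 9 of 21 changed in spinal cord and 2 of 5 in occipital lobe. The read of 23 nt, the most abundant of the arm in spinal cord, was thus not seen changed there. The ends of the reads were set when the authors removed the 3′ adapter, and reads were not aligned to the genome here. Reads of 22 nt with the end of either gene can also be changed reads of 21 nt with an added U or C. The part of any of these in the levels was not tested.

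**Figure D5:**
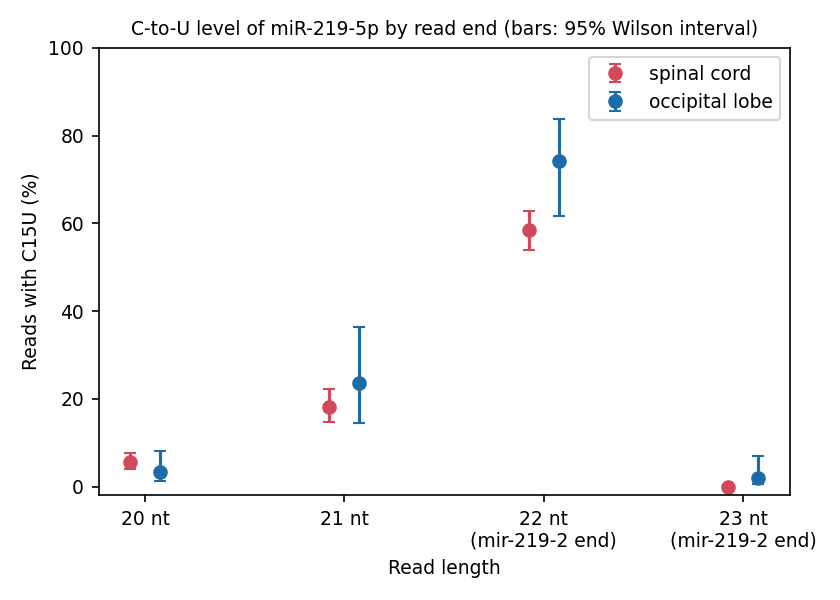
Percentage of miR-219-5p reads with C15U by read length, in spinal cord and occipital lobe, with 95% Wilson intervals as bars. The level is 58.4% and 74.1% for reads of 22 nt with the mml-mir-219-2 end, and 0 of 1094 and 2 of 100 reads for those of 23 nt.

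No other site of the members passed. In miR-219-2-3p the highest C-to-U level of the neural profiles was 0.13% in spinal cord (76 of 57448 reads), at position 11 (C11U). In miR-338-3p the highest of the neural profiles was 0.71% (0.60% to 0.83%, 151 of 21348 reads) in spinal cord and 0.28% in occipital lobe, at position 6 within the seed (C6U).

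Both loci are also listed with pre-miRNAs on the other strand. mml-miR-219 is the reverse complement of all 97 bases of mml-mir-219-2, and mml-miR-3065 that of all 67 bases of mml-mir-338. Their mature arms are shown with the seeds in capitals, since they differ from those of the members.

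miR-219 opposite strand, 3p: aGAAUUGCguuuggacaaucagu
miR-3065-5p: uCAACAAAaucacugaugcug
miR-3065-3p: uCAGCACCaggauauuguuggag

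The 3p arm opposite mml-mir-219-2 had 24 reads (10.04 RPTM) in spinal cord, 11 (4.78 RPTM) in occipital lobe, 6 in each muscle profile and 0 to 2 in each of the others. It thus stood highest in the tissues in which the sense strand stood highest. miR-3065 stood highest in lung and not in the neural tissues, although lung was also the highest non-neural profile of miR-338-3p. miR-3065-5p had 100 of its 123 reads in lung (43.7 RPTM), 8 in occipital lobe and 5 in spinal cord, and miR-3065-3p had 82 of 120 in lung (35.9 RPTM), 19 in occipital lobe and 11 in spinal cord. Neither passed the filter of 5 RPTM, so no test was made. The listed arms of mml-mir-1250, also annotated within AATK, and of mml-mir-657 had 0 reads in the 12 profiles.

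The mature miRNAs whose levels were most like those of the members over the 12 profiles were named by Pearson's r of log2(RPTM + 1), as a description in which all points share libraries. For miR-219-2-3p they were miR-769-5p (r = 0.98), miR-488-3p (0.98) and miR-548h-3p (0.97), which were also the 3 closest to miR-219-5p. miR-769-5p was 6600 RPTM in spinal cord, 3489 in occipital lobe and 106 to 213 elsewhere. miR-488-3p was 43.5 RPTM in spinal cord, 44.8 in occipital lobe and at most 0.85 elsewhere, so it was not higher in spinal cord. miR-548h-3p was 82.0 and 15.7 RPTM and at most 1.17 elsewhere. These r values thus mainly reflect the neural profiles against all others. For miR-338-3p they were miR-185-5p (0.96), miR-181c-5p (0.94) and miR-181d-5p (0.93), and for miR-338-5p miR-185-5p (0.93), miR-9-3p (0.92) and miR-129-2-3p (0.92). The 3p arm of mml-mir-219-1 was closest to miR-3174-5p (0.87), miR-1307-5p (0.86) and miR-369-3p (0.86).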

How the data were processed

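The authors sequenced small RNAs with an Illumina sequencer, kept reads of high quality, removed the 3′ adapter and deposited raw counts of unique sequences of at least 18 nt, without normalization. Pre-miRNA and mature sequences were copied from the study's list, of which part was read here. Sequences were matched to the hairpins in Python 3.11.15. Exact matches with both ends within 2 nt of a mature arm were counted, and the RPTM value is this count per 10000000 valid reads. The filter required a mean RPTM of 5 or more and an SD of 1 or more over the profiles. What passed was tested with edgeR 4.0.16 in R 4.3.3 and Benjamini-Hochberg adjustment over all 372. The standard error was derived from the F statistic. For sites and tails, 1 mismatch and a tail of up to 2 nt were allowed. The methods were tested on simulated data. DESeq2 1.42.0 and other rules of assignment, scaling and filtering were alternatives, and each profile was left out in turn. Named miRNAs are all member arms, the lists, seed sharers, strand partners and the 3 closest by correlation. The members and lists were chosen with earlier results of these data known.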

Additional observations from a re-analysis of the deposited data

How the results depend on the processing

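In the neural comparison both miR-338 arms kept their direction and call, and miR-219-5p and miR-219-2-3p their direction, under all alternatives that gave a value. miR-338-5p was not tested with only identical reads. With valid reads alone, 236 miRNAs were called higher and 72 lower in the neural tissues, against 149 and 116, and the 3p arm of mml-mir-219-1 turned to 1.18 (log2). Leaving out 1 profile gave 145 to 166 higher and 78 to 121 lower. The counts called higher in spinal cord were 11 in the report, 19 with DESeq2 size factors, 18 with valid reads, 27 with the DESeq2 Wald test, 33 without the filter, 7 with only identical reads, 20 with ends within 4 nt, 21 with mismatches and tails, and 4 to 23 without 1 profile (4 without either small intestine profile, 7 without either kidney profile, 23 or 21 without a muscle profile). Those called lower were 0 in the report, 6 with the Wald test, 2 without the filter and 0 to 3 without 1 profile (3 without lung, 2 without a muscle profile). Leaving out spinal cord or occipital lobe gives no such comparison. The 3p arm of mml-mir-219-1 turned to 0.25 in spinal cord against occipital lobe with mismatches and tails. miR-219-5p gained a call there without either muscle profile and without the filter. The share of 3p reads of mml-mir-338 was 100% in occipital lobe and 99.97% in spinal cord with only identical reads, 91.96% and 92.14% with ends within 4 nt, and 93.23% and 93.18% with mismatches and tails. By construction, identical reads leave out the 5p form that ends early. C15U, by an alternative chosen after seeing the data, was 3.25% in occipital lobe with reads of 20 nt, and 2% there and 0% in spinal cord with reads of 23 nt. The upstream start of miR-219-2-3p in spinal cord was 41.81% with ends within 4 nt. The cause of the other changes was not tested.

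Whether the replicate numbers of the labels pair the profiles by animal could not be settled. The differences between the replicates of a tissue had a mean correlation of 0.03 (-0.14 to 0.15) over 6 pairs of tissues. Such a low value cannot show whether the numbers stand for the animals. With the replicate block 149 miRNAs were called higher and 117 lower in the neural tissues and 10 higher in spinal cord. The number of profiles, with 1 per neural tissue, limits all comparisons, and the depth limits miR-219-5p and miR-219-2-3p in non-neural tissues, which had 0 to 14 reads per profile.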
